A study of Mus musculus with 12 samples.

Results

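Lrg1, the gene of leucine-rich alpha-2-glycoprotein, was followed together with the genes of 8 other secreted acute-phase proteins that fat cells are known to make: Hp, Orm1, Orm2, Saa3, Lcn2, Serpina3n, Cp and Camp. The 9 genes were taken by name, with earlier results of these data known, as symbols that the platform annotation gives to probe sets carrying a single symbol. All 9 had such a probe set, out of 18193 genes named this way, and all 9 were bright enough to be tested among 13752 genes. Cp had 8 probe sets and every other member had 1.

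RNA came from cultured mouse cell lines on 12 Affymetrix arrays, 3 for each of 4 groups. Brown adipocytes were taken at day 8, after 3 days with 0.5 mM IBMX, 125 µM indomethacin, 1 µM dexamethasone, 20 nM insulin and 1 nM T3 and later culture with the same insulin and T3. Brown preadipocytes of the same kind of line were taken at day 0, 2 days after confluence and before any of these agents. White adipocytes were 3T3-L1 cells, an established mouse fibroblast line that turns into white-type fat cells, taken at day 10 after 3 days with 0.5 mM IBMX, 1 µM dexamethasone and 1 µg/mL insulin, 2 more days with insulin and then plain medium. White preadipocytes were 3T3-L1 cells at day 0, also 2 days after confluence. All groups grew in DMEM with 10% serum and antibiotics, fetal bovine serum for brown cells and fetal calf serum for white cells. The lines differed in origin, serum, agents and day of harvest, so a difference between the lines cannot be told apart from a difference in these conditions. The labels do not say whether the 3 arrays of a group came from separate cultures, so the p-values measure only the spread between these arrays, which may be technical.

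Acute-phase proteins are plasma proteins whose output changes in inflammation. The liver makes most of them under the control of interleukin-6 and interleukin-1, which act through STAT3, NF-kB and C/EBP factors, often together with glucocorticoid. Fat cells make a part of the same set, and C/EBP factors and glucocorticoid also take part in fat cell differentiation.

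Signal is the deposited linear intensity of a probe set, and changes are differences of log2(signal + 16). A probe set at or below the 40th percentile of its array on all 3 arrays of a group is called dim there; this percentile lay between 32.9 and 41.2. Against a dim group only a lower bound of the fold is given ("at least"), since the fitted log2 change of such a gene depends on the added constant of 16. Adjusted p-values are from limma with Benjamini-Hochberg adjustment over the 13752 genes, and a gene is called below 0.05. Signals of different probe sets are not on a common scale, so levels are compared only within a gene.

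The arrays of a group correlated at 0.978 to 0.982 over the tested genes, against 0.885 to 0.935 between groups. In white cells, all 11 adipocyte markers were above the 40th percentile on every array of adipocytes and 6 of 11 on every array of preadipocytes. In the brown line all 11 were above it in adipocytes and also in preadipocytes. Adipoq, the fat cell hormone adiponectin, averaged 26332 in brown adipocytes and 18695 in brown preadipocytes (log2 change 0.50; limma adjusted p = 0.085), against 32117 in white adipocytes and 31.9 in white preadipocytes. Each brown change below is therefore a change relative to day 0 cultures that already held adipocyte transcripts; the labels were kept as given, and whether the day 0 label of these arrays is right was not tested. Their summed signal was 129081 to 134444 in brown adipocytes and 51436 to 60564 in brown preadipocytes, against 153922 to 172919 in white adipocytes and 8995 to 9756 in white preadipocytes. Ucp1, the uncoupling protein of brown fat, averaged 382 in brown adipocytes and 18.3 in brown preadipocytes, against 6.14 in white adipocytes and 9.41 in white preadipocytes. The 3'/5' ratio of beta-actin, a sign of RNA length, averaged 2.42 in brown adipocytes, 1.49 in brown preadipocytes, 2.25 in white adipocytes and 1.40 in white preadipocytes. It moved with differentiation in both lines, while that of Gapdh stayed between 0.750 and 0.899 on all arrays. The part of these differences in the changes below was not tested. In RNA from whole cultures, fewer cells making a transcript and less of it per cell cannot be told apart.

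The starts of 7 of the 9 genes were matched to promoter windows of RefSeq on GRCm38.p6, each with 250 bases before and 50 after the annotated start; Hp and Orm1 were not matched. Windows of 4 members with different behaviour are printed. Lrg1 (chr17:56121897-56122196, minus strand) was dim before differentiation in both lines, as were Orm2 and Serpina3n. Lcn2 (chr2:32387690-32387989, minus strand) was the member with the profile nearest to Lrg1 by root mean square difference of centred log2 values. Serpina3n (chr12:104406458-104406757, plus strand) was bright only in white adipocytes. Camp (chr9:109849407-109849706, minus strand) changed in opposite directions in the lines. Each window is written 5' to 3' along the gene. Capitals mark matches to a C/EBP, NF-kB or TATA motif or to AGAACA, a part of the glucocorticoid receptor element.
Lrg1: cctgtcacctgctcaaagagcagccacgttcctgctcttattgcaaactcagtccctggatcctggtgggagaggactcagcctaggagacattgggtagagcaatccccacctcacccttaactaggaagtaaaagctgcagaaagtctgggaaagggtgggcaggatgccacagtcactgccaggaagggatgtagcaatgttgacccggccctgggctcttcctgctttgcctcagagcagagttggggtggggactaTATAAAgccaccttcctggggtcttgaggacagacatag
Lcn2: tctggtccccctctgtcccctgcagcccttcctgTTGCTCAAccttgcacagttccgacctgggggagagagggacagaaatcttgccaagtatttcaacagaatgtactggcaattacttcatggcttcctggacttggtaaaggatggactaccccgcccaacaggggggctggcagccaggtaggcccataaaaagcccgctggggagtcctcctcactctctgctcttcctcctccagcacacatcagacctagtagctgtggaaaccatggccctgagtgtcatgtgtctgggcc
Serpina3n: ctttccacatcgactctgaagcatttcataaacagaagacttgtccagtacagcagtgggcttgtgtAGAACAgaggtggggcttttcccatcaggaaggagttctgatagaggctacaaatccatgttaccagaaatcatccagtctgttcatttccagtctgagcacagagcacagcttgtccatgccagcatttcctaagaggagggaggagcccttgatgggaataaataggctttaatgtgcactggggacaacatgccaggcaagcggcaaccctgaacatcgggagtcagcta
Camp: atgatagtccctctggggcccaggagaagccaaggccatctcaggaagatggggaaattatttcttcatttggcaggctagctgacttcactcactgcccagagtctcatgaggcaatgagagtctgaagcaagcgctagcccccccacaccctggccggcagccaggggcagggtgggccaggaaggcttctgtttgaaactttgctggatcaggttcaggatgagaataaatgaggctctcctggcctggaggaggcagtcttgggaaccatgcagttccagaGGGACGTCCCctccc
Of all 32851 windows, 10.8% held the C/EBP motif TTNNGCAA, 8.30% the STAT motif TTCNNNGAA and 8.46% the kappa B motif of NF-kB. AGAACA was held by 19.0% and the TATA motif TATAAA by 13.6%, all on either strand. The full glucocorticoid receptor element was not searched for. A C/EBP match was present in windows of 4 of the 7 members, namely Orm2, Saa3, Lcn2 and 1 of the 2 windows of Cp. In Orm2 it began 120 bases before the start and did not overlap the AGAACA match 128 bases before the start. In Lcn2 it began 216 bases before the start. AGAACA matches lay in the windows of Orm2, Serpina3n and Cp, and TATA matches in those of Lrg1, Orm2 and Cp. The NF-kB motif lay only in that of Camp, beginning 36 bases after the start. The TATA matches of Cp, on opposite strands, overlap each other. No window of the 7 held the STAT letters. The Lrg1 window held none of the motifs other than TATA, which began 12 bases after the annotated start. These are matches of letters in these windows and show neither binding nor activity.

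Lrg1 was dim in both preadipocyte groups and bright in both adipocyte groups, and was brighter in brown than in white adipocytes. It encodes a secreted glycoprotein that binds the TGF-beta co-receptor endoglin and is made by liver and neutrophils as well as fat. Its signal was 1004, 1086 and 1003 in brown adipocytes and 2.05, 6.22 and 5.75 in brown preadipocytes. It was 162, 178 and 161 in white adipocytes and 5.47, 2.16 and 2.84 in white preadipocytes. Every adipocyte array lay above every preadipocyte array, and the 3 brown adipocyte arrays above the 3 white ones. The signal stood at or above 84.7% to 85.6% of all probe sets of the array in brown adipocytes and 64.2% to 65.3% in white adipocytes. Of 13752 genes tested, 40 were dim in both preadipocyte groups and above the 40th percentile in both adipocyte groups.

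In the brown line the rise of Lrg1 was at least 26.2-fold, with a fitted log2 change of 5.67 (SE 0.0966; limma adjusted p = 1.72e-10). In the white line it was at least 4.99-fold, with a log2 change of 3.23 (SE 0.0966; limma adjusted p = 1.18e-09). The changes differed by 2.43 on the log2 scale, brown minus white (95% interval 2.13 to 2.74; limma adjusted p = 3.08e-07). This difference is a fitted value with dim preadipocytes in both lines. Between adipocytes the measured fold was 6.18, brown over white (limma adjusted p = 9.40e-09). Between preadipocytes, both dim, the log2 difference was 0.08 (95% interval -0.13 to 0.30; limma adjusted p = 0.51). The order of Lrg1 levels was thus brown adipocytes, white adipocytes and then both preadipocyte groups, which did not differ beyond their spread.

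**Figure D1:**
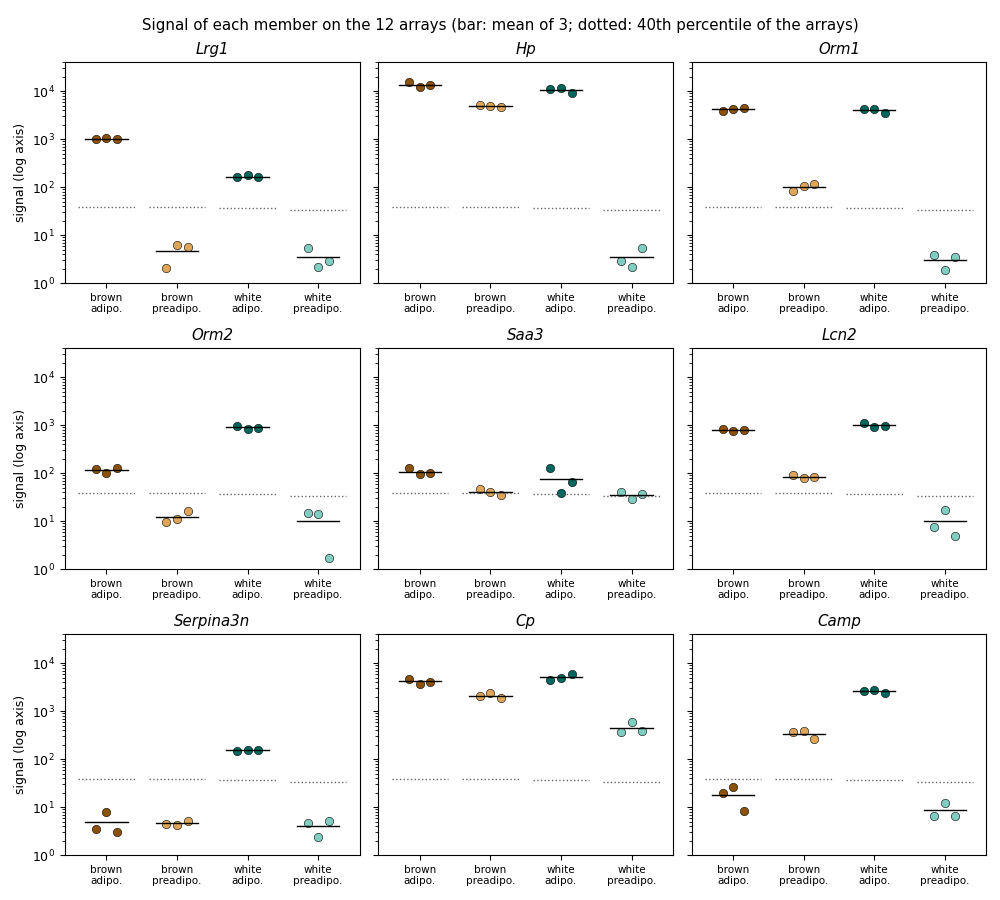
Signal (linear intensity on a log axis) of each of the 9 genes on the 12 arrays, by group; points are arrays, bars the mean of 3 and dotted lines the mean 40th percentile of the group's arrays. Lrg1 lies at 1003 to 1086 in brown adipocytes and 161 to 178 in white adipocytes and below the dotted line in both preadipocyte groups; heights are not comparable between genes.

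In the white line all 9 members were called higher in adipocytes, where 61.3% of the genes tested were called in either direction, 30.1% higher. Their median log2 change was 5.17, against 0.02 over all genes tested, and 4.75 with the 7 members that were dim in white preadipocytes set at their bounds. In the brown line 7 members were called higher and 1, Camp, lower, while Serpina3n did not pass; 58.7% of the genes tested were called, 27.2% higher and 31.6% lower. The members' median there was 1.48, against -0.03 over all genes, and 1.49 with dim groups at their bounds. The fitted brown change was larger than the white one for Lrg1 alone and smaller for 7 members, while Saa3 did not pass. Of the genes tested 51.1% were called, 23.6% larger and 27.5% smaller. For Lrg1, Orm2 and Serpina3n the order of the lines rests on the fitted values, since bounds against dim groups do not settle it.

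**Figure D2:**
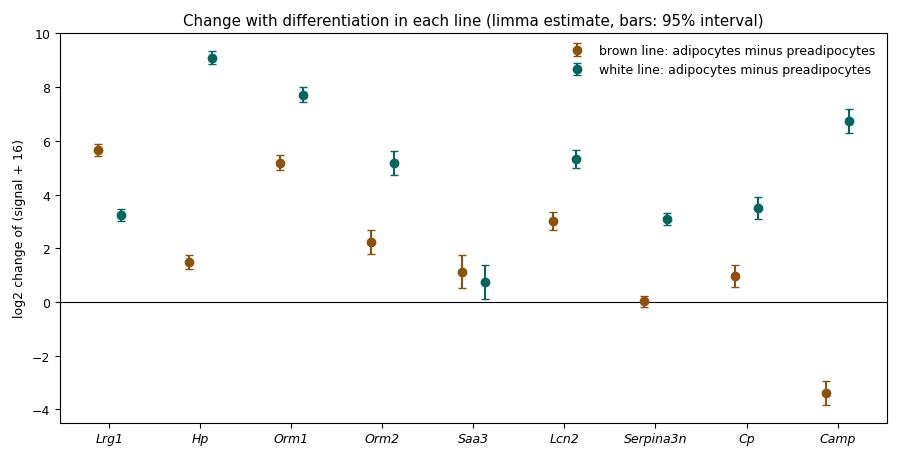
Fitted log2 change of (signal + 16) with differentiation for each gene in the brown line and the white line; bars are 95% intervals of limma. Lrg1 is 5.67 in the brown line and 3.23 in the white line, whereas 7 other genes have the lower change in the brown line, among them Camp at -3.39 there and 6.74 in the white line.

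Haptoglobin, which binds free haemoglobin in plasma, was bright in every group but white preadipocytes. Hp signal was 15431, 12536 and 13407 in brown adipocytes and 5084, 5015 and 4629.8 in brown preadipocytes. It was 11286, 11849 and 9112 in white adipocytes and 2.91, 2.20 and 5.31 in white preadipocytes. White preadipocytes stood apart from the other 3 groups, in which Hp stood at or above at least 96.2% of the probe sets of each array. The rise was 2.80-fold in the brown line (log2 change 1.48, SE 0.116; limma adjusted p = 1.69e-06) and at least 320-fold in the white line (limma adjusted p = 7.88e-12). Brown preadipocytes were at least 147-fold above white preadipocytes (limma adjusted p = 7.67e-11). Brown adipocytes were 1.29-fold above white adipocytes (limma adjusted p = 0.0203), a call lost without white adipocyte array 3 (limma adjusted p = 0.0741) or brown adipocyte array 1 (limma adjusted p = 0.0799).

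The orosomucoids are alpha-1-acid glycoproteins that bind drugs and lipids in plasma, and their mouse genes Orm1, Orm3 and Orm2 are neighbours on chromosome 4. They are close paralogs, so shared hybridization between their probe sets cannot be told apart from expression of each. Orm1 signal was 3937, 4267 and 4535 in brown adipocytes and 82.7, 105 and 119 in brown preadipocytes. It was 4302, 4309 and 3464 in white adipocytes and 3.80, 1.84 and 3.53 in white preadipocytes. Its adipocyte groups overlapped, with a log2 difference of 0.08, brown minus white (95% interval -0.20 to 0.36; limma adjusted p = 0.609). Orm1 rose 42.0-fold in the brown line (limma adjusted p = 6.57e-10) and at least 120-fold in the white line (limma adjusted p = 3.03e-11).

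Orm2 was the orosomucoid that differed between the adipocytes. Its signal was 120.0, 99.8 and 128 in brown adipocytes and 9.58, 11.2 and 16.5 in brown preadipocytes. It was 976, 852 and 869.5 in white adipocytes and 14.5, 14.4 and 1.69 in white preadipocytes. Both adipocyte groups lay above their preadipocytes, by at least 2.94-fold in the brown line (limma adjusted p = 4.75e-06) and at least 26.9-fold in the white line (limma adjusted p = 6.52e-09). Brown adipocytes were 7.78-fold lower than white adipocytes (log2 difference -2.80, SE 0.199; limma adjusted p = 7.90e-07), with no overlap. Orm3, the third gene of the cluster, averaged 112 ± 34.1 in brown adipocytes and 120 ± 38.7 in white adipocytes (SD, n = 3 each) and was dim in both preadipocyte groups.

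Lipocalin 2 is a carrier of iron-binding siderophores that is also made by neutrophils. Lcn2 signal was 834, 746 and 807 in brown adipocytes and 92.6, 77.8 and 83.7 in brown preadipocytes. It was 1137, 910.0 and 967 in white adipocytes and 7.59, 17.3 and 4.88 in white preadipocytes. Brown adipocyte arrays all lay below white ones, yet the log2 difference of -0.33 (95% interval -0.68 to 0.03) did not pass (limma adjusted p = 0.101); it passed without white preadipocyte array 2 (limma adjusted p = 0.0205). The rise was 9.41-fold in the brown line (limma adjusted p = 8.77e-08) and at least 29.9-fold in the white line (limma adjusted p = 1.09e-09), and brown preadipocytes were at least 2.53-fold above white preadipocytes (limma adjusted p = 2.68e-06).

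Ceruloplasmin is a copper-carrying ferroxidase that helps load iron onto transferrin. On its brightest probe set, 1417494_a_at, Cp signal was 4732, 3771 and 3994 in brown adipocytes and 2106, 2409.8 and 1847 in brown preadipocytes. It was 4436, 4878 and 6090.4 in white adipocytes and 376, 583 and 379 in white preadipocytes. The gene was above the 40th percentile on all 12 arrays. It rose 1.97-fold in the brown line (limma adjusted p = 0.0012) and 11.7-fold in the white line (limma adjusted p = 7.26e-08), and brown preadipocytes were 4.83-fold above white preadipocytes (limma adjusted p = 3.99e-06).

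Fitted one by one among 25833 probe sets, all 8 Cp probe sets rose in the white line, by 1.34 to 3.63 on the log2 scale. Of the 8, 7 rose in the brown line and 1417496_at did not pass (log2 change 0.54; limma adjusted p = 0.0612). Between brown and white adipocytes the probe sets disagreed. The log2 difference, brown minus white, was 2.30 for 1448735_at (limma adjusted p = 8.30e-06), 1.83 for 1417497_at and 1.61 for 1441326_at, all higher in brown adipocytes. It was -0.37 for 1455393_at (limma adjusted p = 0.0283), and the 4 others, 1417494_a_at among them, did not pass. On 1448735_at the signal averaged 890.0 ± 28.8 in brown adipocytes and 168 ± 15.6 in white adipocytes (SD, n = 3 each). In preadipocytes all 8 were higher in the brown line, by 1.83 to 3.44 on the log2 scale. The brown change was smaller than the white one on 6 of the 8, while 1417497_at (difference -0.42; limma adjusted p = 0.191) and 1441326_at (difference -0.67; limma adjusted p = 0.086) did not pass. Which transcripts each probe set reads was not analysed here.

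**Figure D3:**
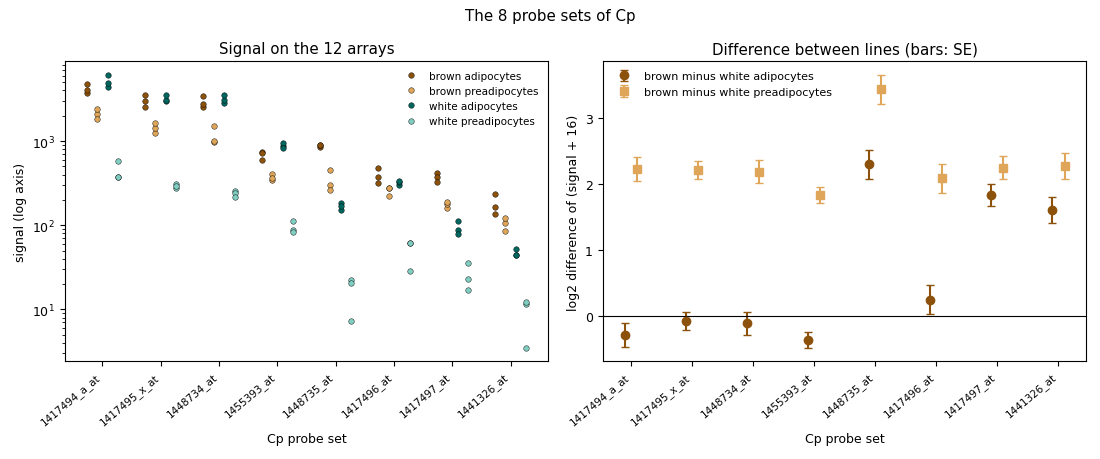
The 8 probe sets of Cp, ordered by mean signal: signal on the 12 arrays by group on a log axis (left), and log2 difference of (signal + 16) between the lines in adipocytes and in preadipocytes with SE (right). In preadipocytes all 8 differences lie between 1.83 and 3.44, while in adipocytes 3 lie between 1.61 and 2.30 and the others between -0.37 and 0.24.

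Serpina3n, a secreted inhibitor of serine proteases related to alpha-1-antichymotrypsin, was bright in white adipocytes alone. Its signal was 3.58, 8.12 and 2.98 in brown adipocytes and 4.50, 4.19 and 5.05 in brown preadipocytes, dim on all 6 arrays. It was 149, 158 and 153 in white adipocytes and 4.63, 2.36 and 5.18 in white preadipocytes. The white rise was at least 4.59-fold (limma adjusted p = 1.41e-09), and brown adipocytes were at least 3.92-fold lower than white adipocytes (limma adjusted p = 2.47e-09). Serpina3n passed the brightness filter only through the white adipocyte arrays. Its p-values therefore lend no support of their own to a high signal there. The brown change was 0.01 on the log2 scale (95% interval -0.20 to 0.22; limma adjusted p = 0.914).

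Camp, the precursor of the antimicrobial peptide cathelicidin, changed in opposite directions in the lines. Its signal was 19.9, 25.8 and 8.17 in brown adipocytes and 363, 378 and 264 in brown preadipocytes. It was 2686, 2754 and 2343 in white adipocytes and 6.64, 12.4 and 6.60 in white preadipocytes. Brown adipocytes and white preadipocytes were dim, while brown preadipocytes and white adipocytes were above the 40th percentile on all their arrays. In brown cells Camp fell at least 8.46-fold (limma adjusted p = 2.44e-07), and in the white line it rose at least 77.4-fold (limma adjusted p = 1.28e-09). The difference of -10.13 between the changes, brown minus white (95% interval -10.77 to -9.48; limma adjusted p = 4.12e-09) is a fitted value with a dim group in each line. Brown adipocytes were at least 66.1-fold lower than white adipocytes (limma adjusted p = 3.12e-09), and brown preadipocytes at least 9.91-fold above white preadipocytes (limma adjusted p = 1.54e-07).

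Camp, Lcn2 and S100a8 are also known from neutrophils, so the neutrophil markers are given beside them. Of 11 in the list, 10 were on the array, and S100a8 was the only one above the 40th percentile on all 3 white adipocyte arrays. S100a8 averaged 28.3 ± 15.4 in brown adipocytes and 23.4 ± 18.4 in brown preadipocytes, against 3457 ± 161 in white adipocytes and 46.9 ± 7.73 in white preadipocytes (SD, n = 3 each). Its partner S100a9 averaged 17.4 in white adipocytes, the integrin Itgam 17.6, the pan-leukocyte gene Ptprc 8.03 and the receptor Cxcr2 5.90, all dim there. The summed signal of the 10 was 123 to 223 in brown adipocytes and 193 to 241 in brown preadipocytes, against 3533 to 3874 in white adipocytes and 179 to 263 in white preadipocytes. The 8 macrophage markers summed to 315 to 321 in brown adipocytes and 329 to 345 in brown preadipocytes, and to 742 to 820.0 in white adipocytes and 1077 to 1241 in white preadipocytes. Above the 40th percentile on all 3 arrays were 2 of the 8 in brown adipocytes and 3 in brown preadipocytes. In white adipocytes 4 were, and in white preadipocytes 3.

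Saa3, the serum amyloid A gene that fat cells and macrophages express, had low signal and small changes in both lines. Its signal was 126, 95.3 and 102 in brown adipocytes and 46.3, 40.1 and 34.8 in brown preadipocytes. It was 126, 38.7 and 64.5 in white adipocytes and 41.5, 29.1 and 36.1 in white preadipocytes. White adipocyte array 2 lay among the white preadipocytes, while the brown groups did not overlap. The rise was 2.66-fold in the brown line (log2 change 1.13, SE 0.280; limma adjusted p = 0.00556) and 1.93-fold in the white line (log2 change 0.74, SE 0.280; limma adjusted p = 0.0425). The white call was lost without white adipocyte array 1 (log2 change 0.37; limma adjusted p = 0.115), and also without any of the other 11 arrays except white adipocyte array 2. Between adipocytes the log2 difference, brown minus white, was 0.53 (95% interval -0.10 to 1.15; limma adjusted p = 0.134), and without white adipocyte array 1 it was 0.89 and passed (limma adjusted p = 0.00254). Saa3 lies beside Saa4, Saa1 and Saa2 on chromosome 7, and shared hybridization was not tested.

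Among adipocytes 2 members, Lrg1 and Hp, were called higher in the brown line and 3, Orm2, Serpina3n and Camp, lower, while 4 did not pass. Of the genes tested, 59.6% were called, 30.1% higher and 29.5% lower. The members' median log2 difference was -0.29, or -0.30 with dim groups at their bounds, against 0.00 over all genes. Among preadipocytes 5 members, Hp, Camp, Orm1, Cp and Lcn2, were called higher in the brown line and none lower, where 55.1% of genes were called, 31.3% higher and 23.8% lower; by unadjusted p under 0.05 the count of lower members was also 0. The members' median there was 1.98, or 1.34 with bounds, against 0.07 over all genes. The 5 members with a higher signal in brown preadipocytes stood beside adipocyte markers of which all 11 were also higher there. Lrg1, Orm2 and Serpina3n were dim in brown preadipocytes, as they were in white preadipocytes.

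Lrg1 was compared with each other member within arrays, as the log2 ratio of (signal + 16). On this scale all 8 other members changed less than Lrg1 in the brown line, by 0.48 (Orm1) to 9.06 (Camp). The order of Lrg1 and Orm1 is not settled there, since the rise of Orm1 was a measured 42.0-fold and that of Lrg1 is known only as at least 26.2-fold. Orm2 was dim in brown preadipocytes and Serpina3n in both brown groups, so their order to Lrg1 rests on the added constant too. In the white line 6 of the 8 changed more than Lrg1 on this scale, and 2, Saa3 and Serpina3n, changed less. Lrg1 was dim in white preadipocytes, and its rise there is known only as at least 4.99-fold. Only Saa3, with a measured 1.93-fold, is placed in order by this bound. The order against the others is not settled, among them Cp with a measured 11.7-fold and Serpina3n with at least 4.59-fold. The white differences ran from -5.87 for Hp to 2.50 for Saa3, Lrg1 change minus member change. The groups did not overlap in 15 of the 16 comparisons, where 3 arrays against 3 give p = 0.1 by an exact two-sided permutation test, the smallest p the design allows. The exception was Cp in the white line (difference -0.26, exact permutation p = 0.4). For Serpina3n in the white line the gap was narrow, with 0.0608 on the lowest adipocyte array and 0.0572 on the highest preadipocyte array. How many of all genes separate from Lrg1 in this way was not tested, so the count is not read as a trait of the members. The 16 comparisons share the Lrg1 values, and their sizes depend on the added constant where a group was dim. With a constant of 64 the brown difference to Orm1 turned to -0.71, and with a constant of 1 the white difference to Cp turned to 1.75.

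Over the 12 arrays the gene with the profile nearest to Lrg1, by root mean square difference of centred log2 values, was Tfr2 (0.569; Pearson r = 0.991), a transferrin receptor that senses iron in liver. Tfr2 averaged 1061 in brown adipocytes and 43.0 in brown preadipocytes, against 252 in white adipocytes and 23.7 in white preadipocytes. The next 7 were Ankef1, Amy1 (an amylase), Syn2 (a synaptic vesicle protein), Zbtb16 (a zinc finger transcription factor), Nrg4 (a growth factor secreted by brown fat), Prtn3 (a serine protease known from neutrophils) and Acacb (the acetyl-CoA carboxylase of mitochondria). Their differences to Lrg1 were 0.576 to 0.725, and all 8 were higher in both adipocyte groups and higher in brown than in white adipocytes on average. Of 13751 genes, 202 had r over 0.95, and the 12 points fall into 4 groups, so r mostly reflects the group means. None of the other members was among the closest. By Pearson r Orm1 (0.899) was nearer than Lcn2 (0.858), while by root mean square difference Lcn2 was the nearest member. Lcn2 ranked 88th (1.24), Orm1 361st (1.60), Cp 496th (1.69), Saa3 1082nd (1.93), Orm2 1096th (1.93), Serpina3n 6785th (2.44), Hp 12104th (2.93) and Camp 13443rd (3.67) of the 13751.

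**Figure D4:**
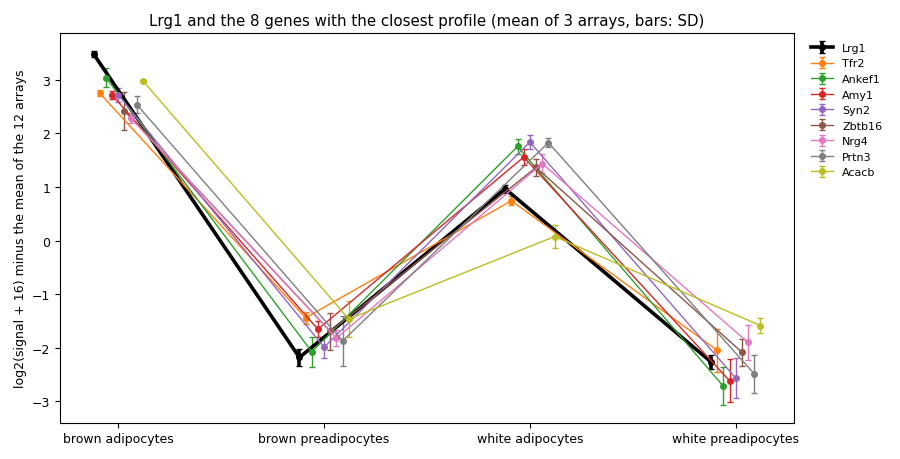
Centred profile of Lrg1 and of the 8 genes nearest to it: log2(signal + 16) minus the gene's mean over the 12 arrays, as group means with SD over 3 arrays; lines join the groups of a gene. All 9 profiles are high in both adipocyte groups and low in both preadipocyte groups. Lrg1 has the widest fitted gap between adipocytes and preadipocytes of the brown line, 5.67. This size depends on the added constant of 16, since Lrg1 was dim in brown preadipocytes and its rise is known only as at least 26.2-fold. Its place in this order is therefore not settled.

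Other genes of the acute phase, not all of them of plasma proteins, were read from a list of 46. Of the 46, 38 were on the array and 21 were bright enough to test. Of these, in the brown line 8 rose, 6 fell and 7 did not pass (median log2 change 0.41, 0.49 with bounds), where 27.2% of all genes tested were called higher and 31.6% lower. In the white line 9 rose, 3 fell and 9 did not pass (median 0.30, 0.53 with bounds), against 30.1% and 31.2% of all genes. Of 8 hepatocyte markers, 7 were on the array, and 2, Fga and Apoh, were above the 40th percentile on all 3 brown adipocyte arrays. The 7 summed to 255 to 375 in brown adipocytes and 113 to 165 in brown preadipocytes, against 111 to 183 in white adipocytes and 105 to 132 in white preadipocytes. Fga averaged 111 ± 45.1 in brown adipocytes and 18.8 ± 14.1 in brown preadipocytes, and Apoh 95.7 ± 2.84 in brown adipocytes and 62.9 ± 18.8 in brown preadipocytes (SD, n = 3 each). Albumin was dim in all 4 groups, averaging at most 23.0. The part of these markers in the changes of the members was not tested.

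Steap4, a metalloreductase of fat cells, and Itih4, an inter-alpha-trypsin inhibitor heavy chain, rose in both lines. Steap4 averaged 9097 in brown adipocytes and 506 in brown preadipocytes, against 3197 in white adipocytes and 8.46 in white preadipocytes. Its log2 change was 4.15 in the brown line (limma adjusted p = 2.70e-07) and 7.12 in the white line (limma adjusted p = 3.79e-09), where preadipocytes were dim and the fold was at least 95.5. Agt, the angiotensin precursor, behaved like Camp, with 387 in brown adipocytes and 3249 in brown preadipocytes, against 4479 in white adipocytes and 11.8 in white preadipocytes. It fell 8.46-fold in the brown line (limma adjusted p = 2.19e-07) and rose at least 134-fold in the white line (limma adjusted p = 2.98e-10). S100a8 had a log2 change of 0.22 in the brown line (limma adjusted p = 0.601) and rose by 5.79 in the white line (limma adjusted p = 1.05e-07). Il1rn, the interleukin-1 receptor antagonist, averaged 73.9 in brown adipocytes and 8661 in brown preadipocytes, a fall of 118-fold (limma adjusted p = 2.50e-10), while it was 27.9 in white adipocytes and 25.7 in white preadipocytes. The long pentraxin Ptx3 fell in both lines, with log2 changes of -4.80 (brown; limma adjusted p = 3.74e-09) and -2.25 (white; limma adjusted p = 5.50e-07). So did Itih2, an inter-alpha-trypsin inhibitor heavy chain, with -4.17 (brown; limma adjusted p = 6.38e-08) and, in the white line, a fall of at least 2.29-fold (limma adjusted p = 1.50e-05).

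The metallothioneins Mt1 and Mt2, which bind zinc and copper, rose in both lines, by 1.88 and 2.56 on the log2 scale in the brown line and by 1.05 and 1.52 in the white line. Fga, a fibrinogen chain, rose at least 2.68-fold in the brown line (limma adjusted p = 0.00213) and Cfb, complement factor B, at least 2.02-fold (limma adjusted p = 0.000352). Rbp4, the retinol carrier of plasma, rose 3.91-fold there (limma adjusted p = 8.17e-06). None of the 3 passed in the white line, and the difference between the lines, brown minus white change, was 1.76 for Fga (limma adjusted p = 0.0256), 1.27 for Cfb (limma adjusted p = 0.00392) and 1.72 for Rbp4 (limma adjusted p = 0.000387). Fga passed the brightness filter only through the brown adipocyte arrays, so its p-values lend no support of their own to a high signal there. Hpx, the haem carrier hemopexin, rose in the white line (log2 change 1.36; limma adjusted p = 0.00899) and had 0.30 in the brown line (limma adjusted p = 0.522), and the difference between the lines did not pass (-1.06; limma adjusted p = 0.122). Lbp, which carries endotoxin, fell by 0.35 on the log2 scale in the brown line (limma adjusted p = 0.049) and rose at least 4.64-fold in the white line (limma adjusted p = 3.76e-07). Rbp4 averaged 20785 in brown adipocytes and 5316 in brown preadipocytes, against 49.9 in white adipocytes and 38.2 in white preadipocytes.

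**Figure D5:**
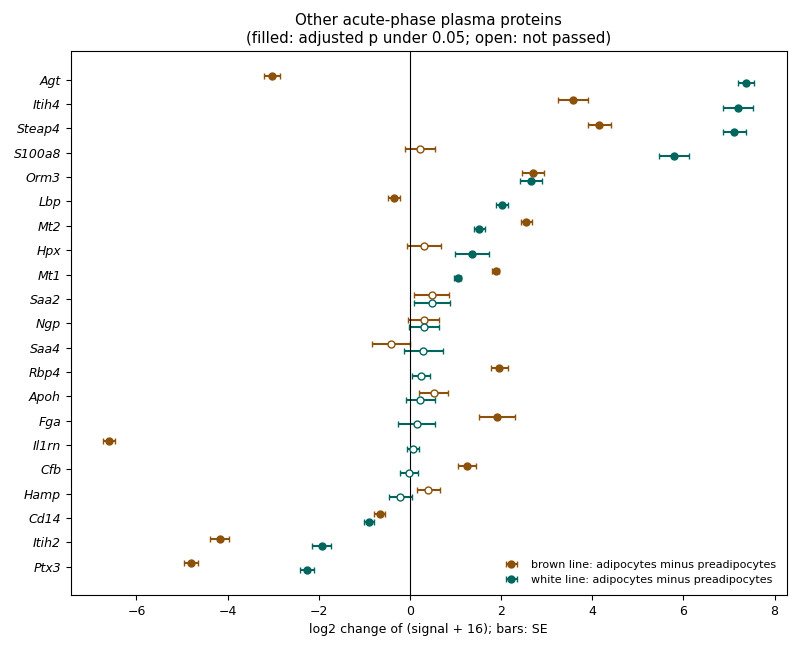
Fitted log2 change of (signal + 16) with differentiation for the 21 tested genes of the list of other acute-phase genes, not all of them of plasma proteins. In each row the point of the brown line is drawn above that of the white line, whatever their values. Bars are SE, and filled points passed an adjusted p of 0.05. Agt lies at -3.03 in the brown line and 7.37 in the white line, and Il1rn at -6.60 and 0.08.

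Cytokine receptors and signalling genes of the acute phase formed a list of 34, of which 31 were tested. Among them 10 rose in the brown line, 12 fell and 9 did not pass (median log2 change -0.15, also with bounds), near the 27.2% and 31.6% of all genes called higher and lower. In the white line 7 rose, 12 fell and 12 did not pass (median -0.10, -0.13 with bounds), against 30.1% and 31.2% of all genes. The interleukin-6 receptor Il6ra rose in both lines, with log2 changes of 1.89 (brown; limma adjusted p = 2.45e-06) and 0.60 (white; limma adjusted p = 0.00669). Stat3, which carries its signal, had log2 changes of 0.41 (brown; limma adjusted p = 0.00131) and 0.54 (white; limma adjusted p = 0.000172). Tlr2, a receptor for bacterial lipoproteins, fell in both lines, with log2 changes of -2.91 (brown; limma adjusted p = 2.58e-08) and -2.71 (white; limma adjusted p = 2.84e-08). The interleukin-1 receptor Il1r1 also fell in both, with -2.97 (brown; limma adjusted p = 6.97e-08) and -0.90 (white; limma adjusted p = 0.000404). Socs1, a feedback inhibitor of cytokine signalling, fell at least 1.99-fold in the brown line (limma adjusted p = 0.0011) and 3.26-fold in the white line (limma adjusted p = 0.00747). Tlr4, the endotoxin receptor, rose by 1.37 on the log2 scale in the brown line (limma adjusted p = 4.99e-07) and had 0.03 in the white line (limma adjusted p = 0.781). Tnf was called higher in brown adipocytes, by at least 1.08-fold (limma adjusted p = 0.0197), with 2 of 3 arrays above the 40th percentile. The cytokine Il11 rose at least 1.22-fold in the brown line (limma adjusted p = 0.0211) and fell at least 4.12-fold in the white line (limma adjusted p = 5.20e-06). The oncostatin receptor Osmr had log2 changes of 0.10 (brown; limma adjusted p = 0.332) and -1.17 (white; limma adjusted p = 5.23e-07). Il6 itself fell at least 16.8-fold in the brown line, with 22.0 in adipocytes and 660.0 in preadipocytes (limma adjusted p = 3.90e-07), and averaged 111 in white adipocytes and 122 in white preadipocytes (limma adjusted p = 0.7).

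Of 11 transcription factors known to act on acute-phase genes, 9 were tested, and in each line 6 rose, 2 fell and 1 did not pass (median log2 change 0.84 in the brown line and 0.66 in the white line, and 0.84 and 0.67 with bounds). Of all genes tested, 27.2% were called higher and 31.6% lower in the brown line, and 30.1% and 31.2% in the white line. Klf15, a glucocorticoid-induced factor, rose by 2.62 in the brown line (limma adjusted p = 1.42e-07) on the log2 scale and at least 89.4-fold in the white line (limma adjusted p = 9.94e-11), where preadipocytes were dim. Cebpa had log2 changes of 0.84 (brown; limma adjusted p = 0.000312) and 4.63 (white; limma adjusted p = 8.80e-10). Cebpb had 1.88 (brown, limma adjusted p = 2.52e-08) and 1.00 (white, limma adjusted p = 1.97e-06), with the larger change in the brown line (difference 0.88, limma adjusted p = 0.000121). Of the 9 tested, 3 had the larger change in the brown line and 4 the smaller, where 23.6% and 27.5% of all genes did. Cebpd fell by 1.43 in the brown line (limma adjusted p = 1.49e-06) and rose by 0.66 in the white line (limma adjusted p = 0.000389). Bcl3, a partner of NF-kB, rose by 1.63 in the brown line and fell by 0.55 in the white line. Pparg, the main regulator of fat cell differentiation, rose by 1.49 in the brown line (limma adjusted p = 2.34e-08) and by 3.69 in the white line (limma adjusted p = 4.66e-11). Junb, a subunit of AP-1, fell in both lines, with log2 changes of -0.71 (brown; limma adjusted p = 0.00374) and -1.497 (white; limma adjusted p = 1.78e-05).

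Receptors and partners of the members made a list of 19, of which 14 were tested. Of the 14, in the brown line 6 rose, 3 fell and 5 did not pass (median log2 change -0.15, -0.00363 with bounds), against 27.2% of all genes called higher and 31.6% lower. In the white line 6 rose, 1 fell and 7 did not pass (median 0.25, 0.30 with bounds), against 30.1% and 31.2%. Endoglin (Eng), the partner of Lrg1 in TGF-beta signalling, averaged 54.2 in brown adipocytes and 270 in brown preadipocytes, a fall of 2.06 on the log2 scale (limma adjusted p = 4.85e-05), against 129 in white adipocytes and 167 in white preadipocytes (limma adjusted p = 0.271). The TGF-beta receptor genes moved apart: Tgfbr1 had log2 changes of 0.24 (brown; limma adjusted p = 0.0145) and 1.70 (white; limma adjusted p = 1.32e-08), and Tgfbr2 of 0.69 (brown; limma adjusted p = 0.00024) and -0.58 (white; limma adjusted p = 0.000724). Hmox1, which breaks down the haem that haptoglobin helps to clear, averaged 412 in brown adipocytes and 660.3 in brown preadipocytes, against 9452 in white adipocytes and 1221 in white preadipocytes. It fell by 0.68 on the log2 scale in the brown line (limma adjusted p = 0.00428) and rose by 2.93 in the white line (limma adjusted p = 8.71e-08). Ferroportin, Slc40a1, the iron exporter that works with ceruloplasmin, rose by 0.55 in the brown line (limma adjusted p = 0.00185) and by 2.76 in the white line (limma adjusted p = 9.73e-09). The transferrin receptor Tfrc rose by 1.63 in the brown line (limma adjusted p = 2.62e-07) and by 0.47 in the white line (limma adjusted p = 0.00186). Scarb1, a lipoprotein receptor that also binds serum amyloid A, rose by 1.00 in the brown line (limma adjusted p = 4.73e-05) and by 3.00 in the white line (limma adjusted p = 9.47e-09). Heph, a ferroxidase related to ceruloplasmin, fell by 1.12 in the brown line (limma adjusted p = 2.95e-05) and had a log2 change of -0.06 in the white line (limma adjusted p = 0.702).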

How the data were processed

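Expression was measured on 12 single-colour Affymetrix arrays from biotin-labelled cRNA, per the labels' protocols. The authors deposited 1 linear intensity for each probe set of an array. Per the submitters' processing notes, Affymetrix Expression Console produced it; the sources used here give neither its version nor the summarisation method. In the files each array had a mean of 500.00 after trimming 2% at each end, so a change in total RNA per cell is hidden. No array depth exists; the number of arrays limits the precision.

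Of 45101 probe sets, 34958 carried 1 symbol, 932 several and 9211 were not listed. The brightest single-symbol probe set stood for each of the 18193 genes, and those above the 40th percentile of the array on at least 3 arrays (13752) were tested. A limma 3.58.1 fit in R 4.3.3 took group means of log2(signal + 16) (lmFit and eBayes on all 12 arrays, 8 residual and 1.81 prior degrees of freedom), with Benjamini-Hochberg adjustment over the genes tested. The fit was tested on simulated data. Python 3.11.15 and matplotlib 3.10.9 made the plots and the motif search. RefSeq gene identifiers matched 34754 probe sets and changed no symbol.

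The text names the 9 members, the 8 genes nearest to Lrg1, and list genes that were called with at least a 2-fold change, had 1 of the 4 largest changes or define a pathway. The members and lists were chosen with earlier results of these data known. Alternatives were other added constants, scalings, filters, probe set rules, moderation and array subsets, and a block for the replicate number.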

Additional observations from a re-analysis of the deposited data

Results flagged for a closer look

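The change with differentiation differed between the lines for 8 of the 9 genes, tested as the difference itself (brown change minus white change, limma, adjusted over 13752 genes). On the log2 scale it was 2.43 for Lrg1 (adjusted p = 3.08e-07), the only positive one, -7.62 for Hp (adjusted p = 1.58e-09), -2.54 for Orm1 (adjusted p = 1.46e-06) and -2.95 for Orm2 (adjusted p = 1.23e-05). It was -2.31 for Lcn2 (adjusted p = 1.32e-05), -3.07 for Serpina3n (adjusted p = 5.71e-08), -2.53 for Cp (adjusted p = 2.45e-05) and -10.13 for Camp (adjusted p = 4.12e-09). For Saa3 it was 0.39 and did not pass (adjusted p = 0.445). These are fitted values, and bounds against dim groups do not settle the order of the lines for Lrg1, Orm2 and Serpina3n. Serpina3n also passed the brightness filter only through the white adipocyte arrays. Beside these values, 51.1% of all genes tested had changes that differed between the lines, and all 11 adipocyte markers changed less in the brown line (median difference -3.55). The part of the adipocyte markers already present in brown preadipocytes was not tested. With 3 arrays in each group, single arrays were not screened for outlying values.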

How the results depend on the processing

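Over 45 log2 differences of the 9 genes, 1106 of 1146 values under alternatives kept their direction and their side of the threshold, and 11 turned in sign. Some alternatives cannot move the estimate, such as leaving out an array of another group, a stricter p cut or the replicate block. Other moderation and a fit of only the arrays compared cannot move it either. The share that kept its direction is therefore partly fixed in advance. Serpina3n in the brown line turned to -0.017 with a constant of 1, -0.038 with scaling to hybridization controls and -0.094 without brown adipocyte replicate 2 (-0.094 to 0.079 leaving out 1 array). Between adipocytes Orm1 turned to -0.052 with equal medians and -0.022 without white adipocyte replicate 3 (to 0.135 leaving out 1 array), and Cp to 0.64 with the mean of its probe sets (limma adjusted p = 0.000346). Between preadipocytes Saa3 turned to -0.032 with quantile normalization and -0.064 with equal medians, Serpina3n to -0.019 with equal medians and -0.023 without white preadipocyte replicate 2 (to 0.080 leaving out 1 array), and Orm2 to -0.11 without white preadipocyte replicate 3 (to 0.286 leaving out 1 array). The Lrg1 minus Cp change in the white line was 1.75 with a constant of 1, and Lrg1 minus Orm1 in the brown line -0.71 with a constant of 64, which made 1 member change more than Lrg1 in place of 0. The cause was not tested.

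Members called higher in brown than in white adipocytes numbered 1 in place of 2 with a constant of 1, equal medians, a fit of only the arrays compared or an adjusted p under 0.01, and 1 to 3 when 1 array was left out (1 without white adipocyte replicate 3 or brown adipocyte replicate 1). Members with the larger brown change numbered 1 to 2 when 1 array was left out, 2 without white adipocyte replicate 1. The white call of Saa3 was lost with quantile normalization (adjusted p = 0.0681), equal medians (0.0596), control scaling (0.118), no filter (0.0574) and a fit of only the arrays compared (0.12). Hp between adipocytes ranged from 0.00276 to 0.187 in limma adjusted p and Lcn2 from 0.0126 to 0.424.

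Scaling to the hybridization controls moved the median of all genes to -0.23 in the white line and -0.22 in the brown line, with 2951 genes higher and 5643 lower (white) and 2640 and 5626 (brown), against 4141 and 4286 (white) and 3736 and 4342 (brown). Between adipocytes it gave 4897 higher and 3183 lower, against 4140 and 4061. Equal medians gave 2735 higher and 4948 lower between preadipocytes, against 4307 and 3274. The replicate block called 8345 genes in the white line, 7977 in the brown line, 6885 for the difference between lines, 8129 between adipocytes and 7447 between preadipocytes, and changed no call of the 9 genes. Deviations of same-numbered arrays of different groups correlated at -0.03 to 0.07, and 6 of 12 arrays correlated best with their own number, so the numbers were not taken to pair the samples. Saa3 had no value with a filter at the 60th percentile, Saa3 and Lcn2 none without less specific probe sets, and the difference between lines none with a fit of only the arrays compared. Signal near the floor limits the members other than Cp and Saa3 to bounds against their dim groups.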

Other observations

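Camp belonged to a small group of genes with large opposite changes. Of the 13752 genes tested, 674 were called higher in white and lower in brown adipocytes against their own preadipocytes, and 8 had fitted changes over 3 on the log2 scale in each direction: Agt, Angptl1, Apod, Aspn, Camp, Dpt, Ecrg4 and Pdlim4, a set chosen after their values were seen. Fitted sizes depend on the added constant where a group was dim. Against the 40th percentile the falls in brown adipocytes were at least 5.37-fold for Angptl1, 4.69-fold for Ecrg4 and 6.78-fold for Pdlim4, and the rises in white adipocytes at least 6.17-fold, 6.10-fold and 12.8-fold for the same genes, so a change over 3 is not shown for each of them. Apod, a lipocalin that carries small lipids, averaged 19.7 in brown adipocytes and 681 in brown preadipocytes, against 2482 in white adipocytes and 21.3 in white preadipocytes. Aspn, a small leucine-rich proteoglycan of the matrix, averaged 67.6 in brown adipocytes and 5685 in brown preadipocytes, against 10155 in white adipocytes and 1264 in white preadipocytes. Dpt, the matrix protein dermatopontin, averaged 55.1 in brown adipocytes and 577 in brown preadipocytes, against 4545 in white adipocytes and 178 in white preadipocytes.

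Lrg1 lies beside the lipid droplet genes Plin5 and Plin4 on chromosome 17, with Sema6b on its other side. Sema6b rose at least 1.61-fold in the white line (limma adjusted p = 0.00691) and did not pass in the brown line (log2 change 0.01, limma adjusted p = 0.979). Between adipocytes Sema6b did not pass either (log2 difference -0.36, brown minus white, limma adjusted p = 0.382). Plin5 averaged 382 in brown adipocytes and 35.6 in brown preadipocytes, against 19.2 in white adipocytes and 31.9 in white preadipocytes, and was higher in brown than in white adipocytes (log2 difference 3.59; limma adjusted p = 8.03e-06). Plin4 was the reverse, with 3355 in brown adipocytes and 1378 in brown preadipocytes, against 12375 in white adipocytes and 1196 in white preadipocytes (log2 difference -1.88, brown minus white adipocytes; limma adjusted p = 4.43e-08). The genes nearest in profile to other members, also named after seeing values, were Adipoq for Hp, Adig for Orm1, Apoc4 for Orm2, Dgat2 for Lcn2, Cndp1 for Serpina3n, Ypel2 for Cp and Apod for Camp.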
